A study of Mus musculus with 4 samples.

Results

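Callus B cells made up 793 of the 14451 filtered cell barcodes in the 2 fracture callus libraries. All 4 libraries of the study, with trabecular bone, held 23216 filtered barcodes. The B cells were chosen by their own transcripts. A barcode with at least 500 unique molecular identifiers (UMIs, each standing for 1 captured transcript), at least 200 genes and at most 10% mitochondrial UMIs was taken as a B cell if it held at least 1 UMI of Cd79a and at least 3 UMIs over Cd79a, Cd79b, Ms4a1 and Ighm together, with Jchain under 0.5% of its UMIs and no UMI of Siglech. Jchain marks plasma cells and Siglech marks plasmacytoid dendritic cells, so these limits were set to keep both out. A GC barcode with 66 Jchain UMIs still passed, as described further on. The levels of these genes describe how the cells were picked and are given as description only.

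The libraries were droplet single-cell RNA-seq of digested callus and of digested trabecular bone from 20-week-old male C57BL/6J mice, 1 library for each tissue and treatment, and the study asked which cell types take part in bone turnover under glucocorticoid (GC) exposure. The GC mice received prednisolone, a synthetic glucocorticoid, at 6.25 mg/kg/d and the control mice received placebo, and tissue was taken at week 2. The labels describe slow-release pellets placed under the skin, while the methods describe daily injection in the fracture animals, so the route behind the GC callus library is not settled here. The number of mice behind each library is not given, and with 1 library per group the difference between treatments has no replicate check: no p-value is given, and each 95% interval (exact Poisson for levels, exact binomial for shares, exact conditional for ratios) covers counting error only.

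B cells arise in the bone marrow from progenitors that rearrange their immunoglobulin genes. Pro-B and pre-B cells carry a surrogate light chain encoded by Vpreb1 and Igll1 and divide, then immature cells display IgM with Cd79a and Cd79b as its signaling chains, and mature naive cells add IgD (Ighd) and circulate between blood and lymphoid organs. Glucocorticoids act through the nuclear receptor Nr3c1, and B cell precursors are known to be among the most sensitive blood cells to them.

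The control callus library held 95852254 UMIs over barcodes of 1 UMI or more. The GC callus library held 64388215, but only over barcodes of at least 500 UMIs, so these totals cannot be compared as library sizes. The control library gave 550 B cells with a median of 2133 UMIs and 1050 genes, and the GC library gave 243 with a median of 1861 UMIs and 900 genes. B cells were shallower than the average barcode, since the median over all filtered barcodes was 4550 UMIs in the control callus and 3532 in the GC callus. The rule genes gave a median of 9 UMIs per B cell in the control callus and 6 in the GC callus. No B cell barcode was shared between any of the libraries, and 12 filtered barcodes were shared between the 2 callus libraries.

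The B cell label held on genes that the rule did not use, although cells picked on some B cell genes will carry others, so this is a description. Ighd stood at 274 CPM (a gene's UMIs summed over cells, scaled to a fixed total for all genes) in the callus B cells and at 2.49 CPM in all other filtered callus barcodes. Pax5, the transcription factor that commits cells to the B lineage, stood at 92.8 CPM against 0.65 CPM. Ly6d, Cd55, H2-Ob, Vpreb3 and Rhoh were also among the 15 genes with the highest ratio. At the edge of the rule, 37 control and 36 GC barcodes passed with exactly 3 UMIs of the rule genes, while 45 control and 58 GC barcodes had 2 and were left out. Cd74, the invariant chain of MHC class II, was found in 71.1% of those 45 and 91.4% of those 58, against 91.9% and 100% of the barcodes with 3 UMIs.

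Most callus B cells held some skeletal RNA. Each B cell was thinned to 1000 randomly drawn UMIs, so that depth was equal and shallower cells (11 control and 8 GC) were left out. At that depth Col2a1, the main cartilage collagen, was present in 88.3% of control and 54.5% of GC callus B cells and in 0 of 348 control trabecular bone B cells, which allows a share of up to 0.862% (3 cells of those counted, the limit used for a count of 0). Callus T cells, which should lack the gene as well, showed 84.0% and 40.6%. A smaller group carried far more. In 46 control and 15 GC B cells the chondrocyte and osteoblast lists took at least 2% of the UMIs, and these cells had a median of 23869.5 and 17829 UMIs, against 2056 and 1849 in the other 504 and 228.

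**Figure D1:**
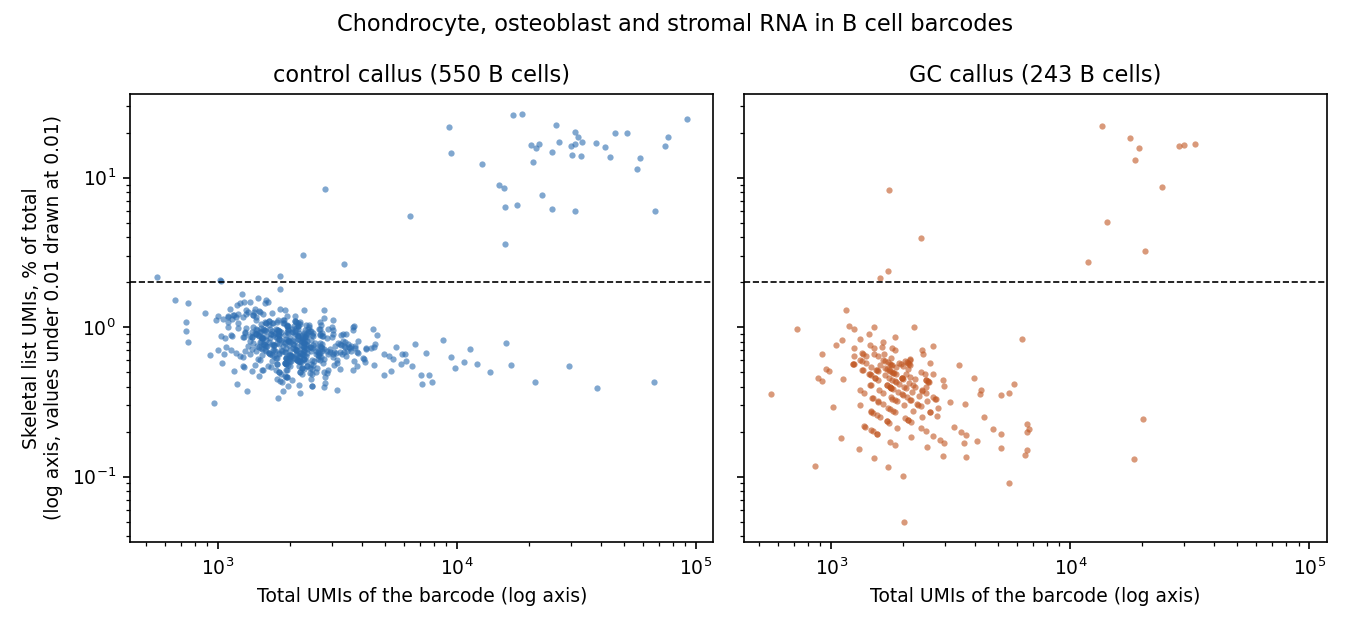
Each point is 1 callus B cell, with its total UMIs on the x axis and the percent of those UMIs from the chondrocyte and the osteoblast and stromal lists on the y axis (both log axes), for the control and the GC library; the dashed line marks 2%. The 46 control and 15 GC barcodes above the line sit mostly at the right, at a median of 23869.5 and 17829 UMIs.

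These 61 skeletal-rich barcodes held 48.2% of the summed UMIs of the control B cells and 31.1% of those of the GC B cells. A simulation-based doublet score removed 22 of the 46 and 8 of the 15. Levels summed over all B cells therefore hold more skeletal RNA in the control library, and other genes take a smaller part of its total. The 18 genes of the B cell identity list summed to a GC to control ratio of 1.04 over all B cells. Without the skeletal-rich barcodes this ratio was 0.827, so ratios of B cell genes over all B cells can lie too high. GC to control levels below are over all B cells. They are given again over the 504 and 228 B cells left without the skeletal-rich barcodes where the order of the libraries turned, and for some genes where it did not. This choice was made after seeing the data. T cell markers were low, with 3 or more UMIs of the T cell list in 3 control and 1 GC B cell. Neutrophil and erythroid genes were not low, as described further on: their lists summed to 924 and 1552 CPM in the control and to 3124 and 3023 CPM in the GC B cells. The osteoclast list summed to 303 CPM in the control and 321 CPM in the GC B cells. Without the skeletal-rich barcodes it summed to 495 and 453 CPM. For Ctsk of that list 1 barcode held 296 of 424 control UMIs and 1 held 165 of 178 GC UMIs.

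B cells took a smaller share of the GC callus. They were 7.71% (7.10 to 8.35) of the 7133 filtered control barcodes and 3.32% (2.92 to 3.76) of the 7318 GC barcodes, a GC to control ratio of 0.431 (0.369 to 0.502). Barcodes with any UMI of Cd79a, which the rule requires, were 10.0% and 5.55% and are no separate evidence. T cells, chosen by Cd3e and related genes, were 2.10% (1.78 to 2.46) of the control and 2.39% (2.05 to 2.77) of the GC barcodes. There were thus 3.67 B cells per T cell in the control callus and 1.39 in the GC callus. In trabecular bone the same rule found 353 B cells in the control library, 8.88% of 3977 barcodes, and 18 in the GC library, 0.376% of 4788. The trabecular ratio was 0.0424 (0.0248 to 0.0679), whose interval lay wholly below that of the callus. A share falls when other cells grow in number, and the files give no count of cells per callus, so fewer B cells and more of other cells cannot be told apart.

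**Figure D2:**
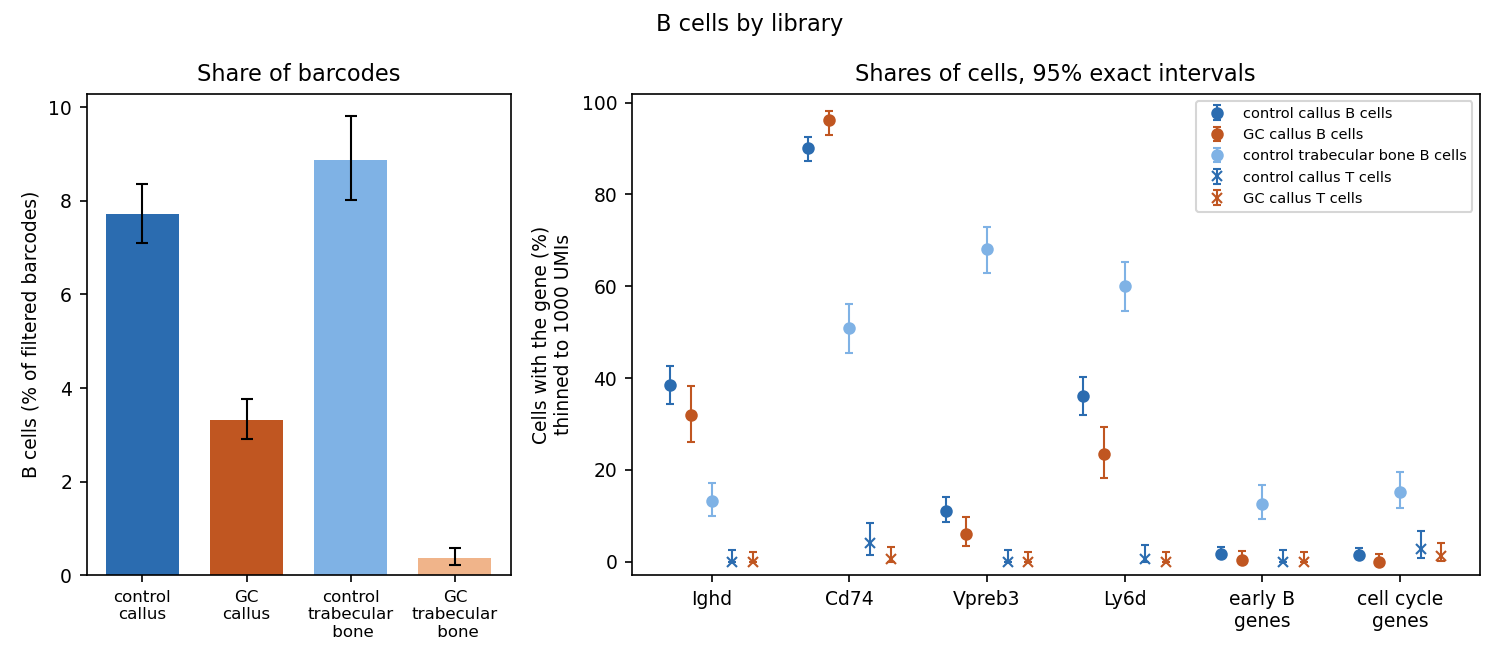
Left, B cells as a percent of filtered barcodes in the 4 libraries; right, percent of cells with the named gene or genes after thinning to 1000 UMIs, for B cells (circles) and callus T cells (crosses), with exact 95% intervals. B cells were 7.71% of control and 3.32% of GC callus barcodes, and Ighd and Cd74 were more common in callus than in control trabecular bone B cells while Vpreb3, Ly6d and the early B and cell cycle genes were less common.

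Of 7012 genes with at least 50 UMIs over both callus B cell groups, 95 (1.35%) were at least 2-fold higher and 462 (6.59%) at least 2-fold lower in the GC library, 7.94% in either direction, on the scale log2 of (GC CPM + 5) over (control CPM + 5), which understates ratios of low genes. The median of all 7012 was -0.09. Without the skeletal-rich barcodes 54 of 5107 (1.06%) were higher and 330 (6.46%) lower, 7.52% in either direction, with 3220 of the 5107 below 0 and a median of -0.14. Among genes that also reached 50 CPM in either library, the 10 lowest over all B cells began with the chemokine gene Cxcl1 (298 UMIs in the control and 1 in the GC B cells) and included the cartilage genes Ucma and Scrg1 beside Vpreb1 and the cell division gene Pclaf. With the skeletal-rich barcodes left out the 10 lowest began with Igll1 and Vpreb1 and included Pclaf, Cenpf and Stmn1 of dividing cells and the carbonic anhydrase genes Car1 and Car2 of red blood cell precursors. Over all control B cells 1 barcode of 66972 UMIs held 78 of 84 Car1 and 116 of 189 Car2 UMIs. Their control levels over all B cells were 31.7 and 71.4 CPM, and 2.3 and 28.3 CPM without that barcode.

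The surrogate light chain genes were nearly absent from the GC B cells. Vpreb1 (chr16:16868403-16870843, minus strand, GRCm38) gave 148 UMIs in 12 control B cells, 55.9 CPM, and 1 UMI in 1 GC B cell, 1.3 CPM. The GC to control ratio was 0.0232 (0.000585 to 0.132). Its neighbor Igll1 (chr16:16860671-16863985, minus strand), 4417 bases away, gave 116 UMIs in 12 control B cells, 43.8 CPM, and none in the GC B cells. Counting 3 UMIs as the smallest level that could be seen, its summed level was at least 11.2-fold lower, if each UMI is independent. In the control library 1 deep barcode of 38572 UMIs held 49 of the 116 Igll1 UMIs and 39 of the 148 Vpreb1 UMIs. Without it the control levels were 25.7 CPM and 41.8 CPM. The bound for Igll1 is smaller without that barcode, since 3 UMIs in the GC B cells stand for 3.9 CPM. Both this bound and the Vpreb1 interval count each UMI as independent. Yet the control UMIs of each gene sat in 12 of 550 B cells (2.18%), against 1 (Vpreb1) and 0 (Igll1) of 243 GC B cells. Both therefore overstate the certainty of the difference.

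Few cells of either library carried the early program. Barcodes with at least 2 UMIs over Vpreb1, Vpreb2, Igll1, Dntt, Rag1 and Rag2 were 16 of 550 control B cells (2.91%, 1.67 to 4.68) and 2 of 243 GC B cells (0.823%, 0.0998 to 2.94). At 1000 UMIs they were 9 of 539 (1.67%, 0.766 to 3.15) and 1 of 235 (0.426%, 0.0108 to 2.35). These intervals overlap and no interval of the difference was computed, so at this depth the shares were not shown to differ. No callus T cell and no callus chondrocyte met this threshold, with or without thinning. Dntt, the polymerase that adds bases at immunoglobulin joints, gave 32 UMIs in 8 control B cells (1.45%) and none in the GC B cells. Its summed level was at least 3.1-fold lower, a bound that also counts each UMI as independent. Rag1, a subunit of the recombinase, gave 24 UMIs in 13 control B cells and 11 UMIs in 3 GC B cells, 8 of them in 1 barcode, at 9.07 CPM and 14.3 CPM.

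Of the 20 genes of the early B list, 12 had enough UMIs, of which 3 (Vpreb1, Igll1 and Lef1) were at least 2-fold lower and none at least 2-fold higher, against 6.59% lower and 1.35% higher of all genes, with a list median of -0.55, also when Igll1 was set at its bound. Without the skeletal-rich barcodes 5 of 10 were at least 2-fold lower, Akap12 and Myb joining them, against 6.46% of all genes, and the median was -0.95. Lef1, a Wnt pathway transcription factor active in pro-B cells, stood at 40.1 CPM in the control and 5.2 CPM in the GC B cells. Myb, a transcription factor of blood progenitors, stood at 44.2 CPM and 20.8 CPM. Il7r, the receptor for the growth factor of B cell progenitors, stood at 25.7 CPM and 27.3 CPM, and at 45.2 CPM and 39.6 CPM without the skeletal-rich barcodes, but 10 of its 21 GC UMIs were in 1 barcode, without which the GC level was 14.4 CPM. Vpreb3, a chaperone-like protein of pre-B and immature B cells from the B cell identity list, stood at 125 CPM (112 to 139) and 49.4 CPM (35.0 to 67.8).

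Cell cycle genes were lower in the GC B cells in every case that could be measured. All 18 measured genes of the list of 20 had a log2 value below 0, 9 of them at least 2-fold lower, with a median of -0.92, where 4018 of all 7012 genes were below 0 and 6.59% at least 2-fold lower, and without the skeletal-rich barcodes 10 of 16 were at least 2-fold lower with a median of -1.17. Mki67, a protein of dividing cells, gave 227 UMIs in 26 control B cells, 85.8 CPM (75.0 to 97.7), and 15 UMIs in 4 GC B cells, 12 of them in 1 barcode, 19.5 CPM (10.9 to 32.2). Stmn1, a regulator of microtubules, stood at 142 CPM and 26.0 CPM, and Cenpf, a kinetochore protein, at 39.3 CPM and 3.9 CPM. H2afz, a histone variant that resting cells also use, lay closest to no difference at 653 CPM and 623 CPM.

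Barcodes that met a cell cycle threshold were again few. Barcodes with at least 3 UMIs over 10 mitotic and DNA synthesis genes were 21 of 550 (3.82%, 2.38 to 5.78) in the control and 3 of 243 (1.23%, 0.255 to 3.57) in the GC callus. At 1000 UMIs they were 8 of 539 (1.48%, 0.643 to 2.90) and 0 of 235, which allows a share of up to 1.28% by the 3-cell limit and 1.56% by the exact binomial bound, and callus T cells showed 2.67% and 1.14%. The exact intervals of the B cell shares overlap at both depths. No interval of their difference was computed, so here too the shares were not shown to differ. In the control library 8 of the 21 also met the early B threshold, 3 were skeletal-rich, and 10 were neither. The deepest of these 10 had 66972 UMIs, the total of the barcode with 78 of 84 Car1 UMIs. Of the 3 in the GC library 1 was skeletal-rich, and the other 2 had 18388 and 20208 UMIs. These are the totals of the barcodes with 1111 of 1112 Ighg2c UMIs and 165 of 178 UMIs of Ctsk, from the osteoclast list. Some of these barcodes may thus not be single dividing B cells. In callus T cells Mki67 stood at 57.4 CPM in the control and 57.3 CPM in the GC library, and Top2a at 45.9 CPM and 67.5 CPM. The T cells of the same libraries thus did not show clearly lower levels of these 2 genes, while their share by the cell cycle threshold was 2.67% and 1.14%.

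**Figure D3:**
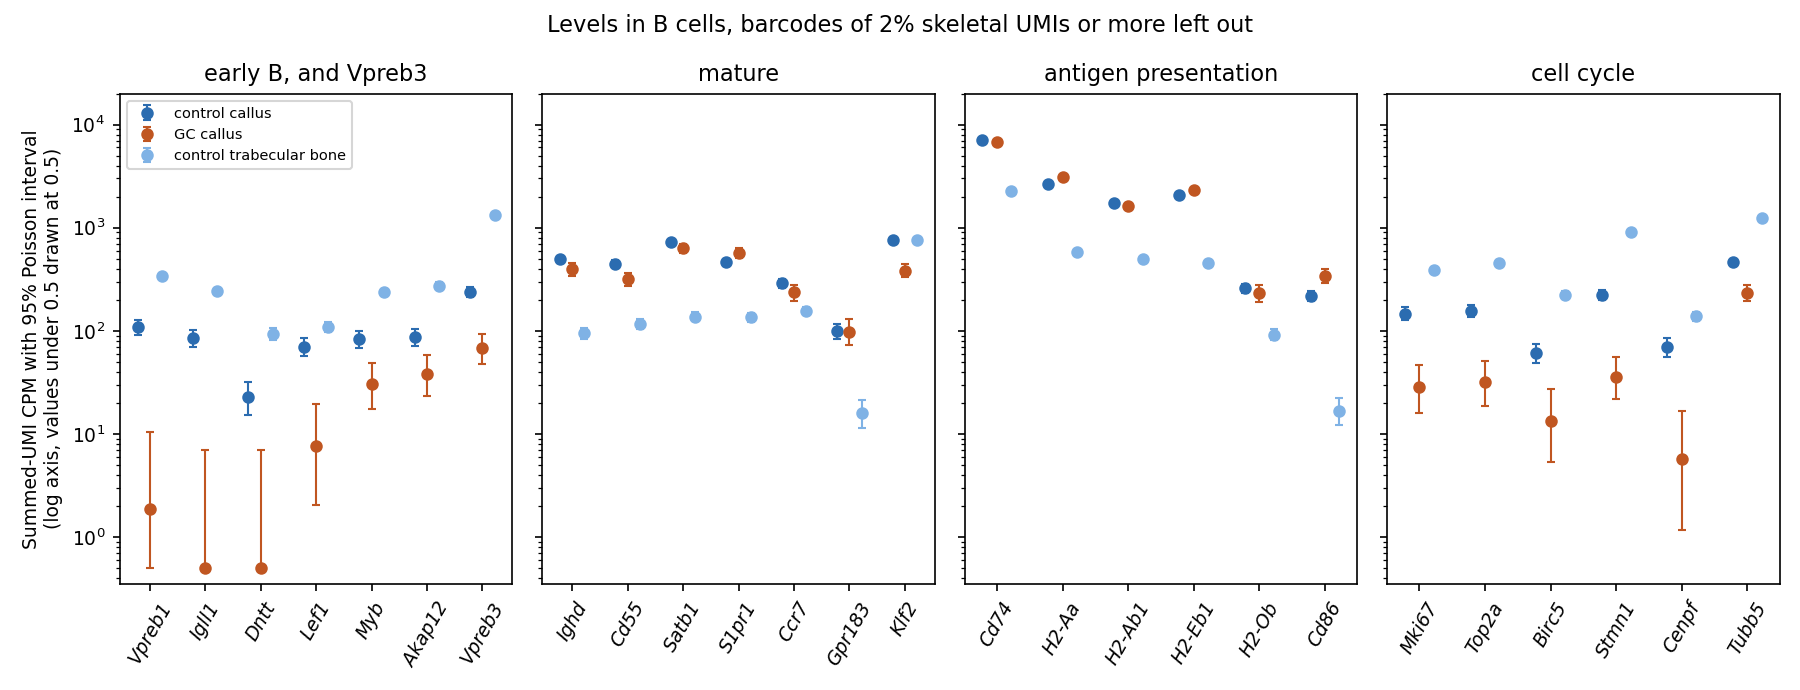
Levels (summed-UMI CPM, log axis, with 95% Poisson intervals) of early B, mature B, antigen presentation and cell cycle genes in B cells of control callus, GC callus and control trabecular bone, skeletal-rich barcodes left out. GC callus points lie below control callus points for the 6 early B genes, Vpreb3 and the 6 cell cycle genes, and both callus groups lie above control trabecular bone for Ighd, Cd55, Satb1 and all 6 antigen presentation genes.

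Genes of mature B cells were close to the median of all genes over all B cells, but below it without the skeletal-rich barcodes. Ighd (chr12:113406604-113416324, minus strand), spliced from the same transcript as Ighm (chr12:113418558-113422730, minus strand), stood at 268 CPM (249 to 289) in the control and 294 CPM (257 to 335) in the GC B cells, and at 495 CPM and 394 CPM without the skeletal-rich barcodes, so the direction of this small difference depended on them. At 1000 UMIs an Ighd UMI was present in 207 of 539 control B cells (38.4%, 34.3 to 42.7) and 75 of 235 GC B cells (31.9%, 26.0 to 38.3), and unthinned in 58.0% and 50.2%. Callus T cells showed 0 of 150 and 0 of 175 at 1000 UMIs, which allows up to 2.00% and 1.71%, and had a median of 3366 and 3402 UMIs. Of the 20 genes of the mature B list 18 were measured, none passed 2-fold, and the median was 0.02, against 7.94% and -0.09 for all genes. Without the skeletal-rich barcodes 13 of 16 were lower, 2 of them (Tnfrsf13c and Tmem108) at least 2-fold, and the median turned to -0.42, against 3220 of 5107, 6.46% and -0.14 for all genes.

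Within that list, S1pr1, the receptor that guides lymphocytes out of tissue into blood, stood at 254 CPM (235 to 274) in the control and 430 CPM (385 to 479) in the GC B cells. Klf2, a transcription factor of resting lymphocytes, had the opposite order, at 512 CPM (485 to 540) and 350 CPM (309 to 394). Tnfrsf13c, the receptor for the survival factor BAFF, stood at 92.2 CPM (81.0 to 105) and 53.3 CPM (38.3 to 72.3). These 3 genes kept their order without the skeletal-rich barcodes, at 463 and 568 CPM, 765 and 383 CPM, and 170 and 75.5 CPM. Callus T cells had the same order for S1pr1 (671 and 863 CPM) and Klf2 (543 and 335 CPM).

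The B cell identity list, 18 genes of which all were measured, had a median of -0.11. It had 8 genes higher and 10 lower and only Vpreb3 past 2-fold, where 4018 of all 7012 genes were lower and 7.94% past 2-fold. Without the skeletal-rich barcodes 3 were higher and 15 lower, Vpreb3 and Cd72 at least 2-fold, with a median of -0.39, where 3220 of all 5107 genes were lower and 6.46% at least 2-fold. Ebf1, the transcription factor that specifies early B cells, stood at 781 CPM and 1031 CPM, and at 1384 CPM and 1376 CPM without them. Among the rule genes, Cd79a stood at 701 CPM and 867 CPM, Ighm at 1256 CPM and 1208 CPM, Ms4a1 (CD20) at 156 CPM and 181 CPM, and Cd79b at 370 CPM and 243 CPM. The order of Cd79a and Ms4a1 turned without the skeletal-rich barcodes, at 1257 and 1183 CPM and at 289 and 243 CPM. Of the 14 measured genes of the B cell receptor signaling list none passed 2-fold, where 7.94% of all genes did. The list median was 0.19, or -0.23 without the skeletal-rich barcodes.

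Antigen presentation genes were abundant in both libraries. Cd74 stood at 3862 CPM (3787 to 3937) in the control and 4970 CPM (4814 to 5130) in the GC B cells, but 7042 CPM and 6821 CPM without the skeletal-rich barcodes. H2-Aa (chr17:34282744-34287823, minus strand), the class II alpha chain, was higher in the GC B cells on both sets, at 1449 CPM and 2270 CPM, and at 2635 CPM and 3115 CPM. Cd86, a costimulatory ligand for T cells, stood at 117 CPM (104 to 131) and 242 CPM (208 to 279), a ratio of 2.06 (1.71 to 2.48), and at 217 CPM and 342 CPM without the skeletal-rich barcodes. Ciita, the transactivator of class II genes, had the opposite order, at 66.1 CPM and 40.3 CPM. None of the 10 genes of the MHC class II list passed 2-fold over all B cells, where 7.94% of all genes did, and their median was 0.09. Without the skeletal-rich barcodes 8 of the 10 were lower, 1 of them at least 2-fold, and the median turned to -0.30. On that set 3220 of all 5107 genes were lower and 6.46% at least 2-fold, with a median of -0.14.

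The glucocorticoid response list showed no shared direction. Of its 20 genes 18 were measured, 8 higher and 10 lower in the GC B cells, with a median of -0.14, or -0.09 without the skeletal-rich barcodes. Tsc22d3 (GILZ), a widely used target of the receptor, stood at 180 CPM (164 to 196) and 198 CPM (167 to 232), and at 1000 UMIs it was present in 21.0% and 20.0% of B cells. Its order turned without the skeletal-rich barcodes, at 228 CPM and 208 CPM. Fkbp5, a chaperone that damps the receptor, stood at 21.5 CPM (16.3 to 27.9) and 42.9 CPM (29.5 to 60.3), a ratio of 1.99 (1.26 to 3.11). Per1, a clock gene and receptor target, had the opposite order, at 70.7 CPM and 45.5 CPM. Tle4, a co-repressor, was the only gene of the list at least 2-fold higher, at 60.8 CPM and 150 CPM, and it fell short of 2-fold without the skeletal-rich barcodes, at 111 CPM and 202 CPM. Errfi1, an inhibitor of EGF receptor signaling, was the only one at least 2-fold lower, at 471 CPM and 226 CPM, and at 80.9 CPM and 26.4 CPM without them. Of all genes 1.35% were at least 2-fold higher and 6.59% lower. The receptor gene Nr3c1 stood at 91.1 CPM (79.9 to 103) and 100 CPM (79.0 to 125).

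Bcl2l11 (BIM), the BCL2 family member that triggers death of lymphocytes, stood at 273 CPM (253 to 293) and 491 CPM (443 to 544), a ratio of 1.80 (1.59 to 2.04). Without the skeletal-rich barcodes it stood at 413 CPM and 655 CPM, a smaller ratio. Bax, an effector of the same family, had the opposite order, at 143 CPM and 72.8 CPM. The survival genes Bcl2 and Mcl1 stood at 26.8 and 27.3 CPM and at 367 and 403 CPM, and Mcl1 at 461 and 449 CPM without the skeletal-rich barcodes. In the GC library 6 of 21 Bcl2 UMIs were in 1 barcode, without which its level was 20.0 CPM. The AP-1 genes Fos and Junb, which cells switch on within minutes of a stimulus, were the 2 genes of the 18 in the immediate early and stress list at least 2-fold lower, against 6.59% of all genes: Junb stood at 853 CPM (818 to 888) and 371 CPM (329 to 416), and Fos at 310 CPM and 111 CPM. Of the list 14 genes were lower and 4 higher, with a median of -0.13, or -0.48 without the skeletal-rich barcodes. T cells of the same libraries had like values, with Junb at 899 and 363 CPM, Fos at 387 and 120 CPM, Bcl2l11 at 290 and 462 CPM and Tle4 at 66.3 and 163 CPM.

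**Figure D4:**
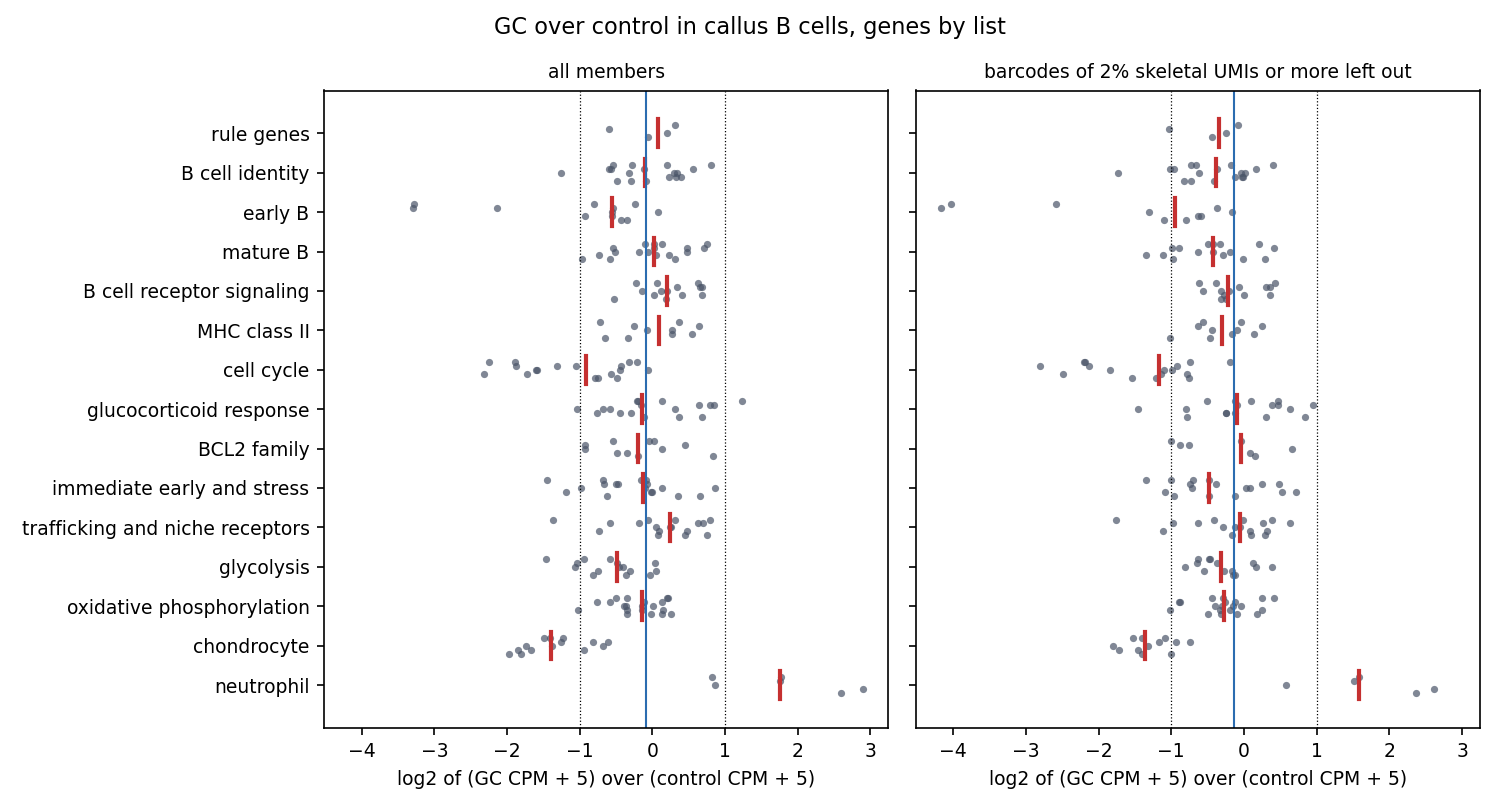
Each point is 1 gene, with log2 of (GC CPM + 5) over (control CPM + 5) on the x axis and its list on the y axis, over all callus B cells (left) and without skeletal-rich barcodes (right); red bars are list medians, the blue line the median of all genes and the dotted lines 2-fold. The cell cycle median sits at -0.92 and -1.17 and the early B median at -0.55 and -0.95, while the mature B and MHC class II medians are 0.02 and 0.09 over all B cells and -0.42 and -0.30 without skeletal-rich barcodes.

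Cxcr4, the receptor for the marrow retention signal CXCL12, stood at 339 CPM (317 to 362) and 592 CPM (538 to 648). Without the skeletal-rich barcodes it stood at 617 CPM and 804 CPM, a smaller ratio, and a Cxcr4 UMI was present in 52.3% and 51.5% of B cells at 1000 UMIs. Cd44, a receptor for hyaluronan, stood at 224 CPM and 365 CPM, and S1pr4 was the only one of 17 measured trafficking genes past 2-fold over all B cells, where 7.94% of all genes were, at 31.4 CPM and 9.1 CPM. The glycolysis list had a median of -0.49 over 15 genes, with 3 at least 2-fold lower against 6.59% of all genes, and -0.32 with none past 2-fold without the skeletal-rich barcodes. The oxidative phosphorylation list had a median of -0.14 over 20 genes, and of -0.27 without them. The fatty acid oxidation and uptake list had a median of -0.17 over 14 genes, or -0.30 over 8 without them.

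Several of the highest GC to control ratios rested on 1 barcode or a few. In the GC library 1 barcode of 18388 UMIs held 1111 of 1112 UMIs of Ighg2c, an IgG constant region, 3842 of 4528 UMIs of Igkc, the kappa light chain, and 66 of 69 UMIs of Jchain. Igkc thus stood at 5887 CPM in the GC B cells, and at 914 CPM without that barcode, against 1014 CPM in the control B cells. The barcode passed the rule since its Jchain share was under 0.5%. Neutrophil genes were also among the highest: Ngp stood at 17.8 CPM and 164 CPM, and the list of 10 summed to 924 CPM and 3124 CPM, with S100a9 its most abundant gene. The neutrophil median of 1.76 turned to -0.95 when B cells with at least 2% of UMIs from another cell class (8 control and 7 GC) were left out. Hbb-bs, a hemoglobin gene, stood at 989 CPM and 1889 CPM, but 1 GC barcode of 3600 UMIs held 1256 of its 1453 UMIs, and without it the GC level was 257 CPM. In the control 1 barcode held 1182 of 2617, and without it the control level was 545 CPM. In callus T cells Hbb-bs stood at 654 and 177 CPM, and the part of free RNA in the B cell values was not tested. No barcode held 20% or more of the GC UMIs of mt-Atp8, a mitochondrial gene (104 and 610 CPM), AY036118 (242 and 894 CPM) or Lilrb4a, an inhibitory receptor gene (19.3 and 83.2 CPM), which were also among the 10 highest.

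Both light chains were found in B cells of each library. At 1000 UMIs Igkc was present in 66.8% of control and 61.3% of GC B cells, and a lambda constant gene (Iglc1, Iglc2 or Iglc3) in 24.1% and 17.0%. Callus T cells gave 2.67% and 5.14% for Igkc and 0 cells for lambda, which allows up to 2.00% and 1.71%. UMIs of 24 heavy chain variable segments were spread over 27 control B cells, and the most frequent segment gave 3 of 29 UMIs. In the GC library 12 B cells held 32 such UMIs in all, of which 20 were of Ighv5-17, and how many of the 12 held that segment was not counted. A UMI of a switched isotype was present in 3.34% and 3.40% of B cells at 1000 UMIs, where callus T cells showed 3.33% and 0 of 175, and the part of free RNA in these shares was not tested.

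B cells of the control callus library were compared with those of the control trabecular bone library, chosen by the same rule. The trabecular B cells held more RNA of other classes. Their neutrophil and erythroid lists summed to 46423 and 9111 CPM, against 924 and 1552 CPM in the control callus. Barcodes with more than 2% of UMIs from another class were 39 of 353, against 8 of 550. These were kept on both sides, and leaving out skeletal-rich barcodes changed only the callus side. Of 8468 genes with at least 50 UMIs over both sides together, 1315 (15.5%) were at least 2-fold higher and 956 (11.3%) at least 2-fold lower in the callus, 26.8% in either direction. Without skeletal-rich barcodes these were 966 of 7286 (13.3%) and 706 (9.69%), 22.9% in either direction. At 1000 UMIs an Ighd UMI was present in 38.4% of callus and 46 of 348 (13.2%, 9.84 to 17.2) of trabecular B cells, and a Cd74 UMI in 90.2% and 50.9%. The reverse held for Vpreb3, at 11.1% and 68.1%, and for Ly6d, a surface protein of B lineage cells, at 36.0% and 60.1%. The early B genes marked 1.67% and 12.6% (9.34 to 16.6), and the cell cycle genes 1.48% and 15.2% (11.6 to 19.4). The control callus intervals of these 6 shares did not overlap the trabecular ones. In barcodes of 10 to 100 UMIs, too few for the filter, Cd74 stood at 183 CPM in the control callus and 90.4 CPM in the control trabecular library. The part of free RNA in these shares was not tested.

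Levels gave the same picture. Ighd stood at 268 CPM in callus and 94.5 CPM in trabecular B cells, Gpr183, a receptor that positions mature B cells, at 53.7 and 15.9 CPM, and Cd86 at 117 and 16.6 CPM. Vpreb1 stood at 55.9 and 339 CPM, Mki67 at 85.8 and 393 CPM, and Spib, an Ets transcription factor of B cells, at 44.6 and 342 CPM. Of the 16 measured early B genes 14 were at least 2-fold lower in the callus with a median of -2.22, and of the 20 cell cycle genes 19, with a median of -1.79, against 11.3% of all genes. Without the skeletal-rich barcodes these were 12 of 15 (-1.55) and 14 of 20 (-1.41), against 9.69%. All 10 MHC class II genes were higher in the callus without the skeletal-rich barcodes, 6 of them at least 2-fold, with a median of 1.54, where 4079 of all 7286 genes were higher, 13.3% at least 2-fold, with a median of 0.14. Over all B cells 8 of the 10 were higher, with a median of 0.68, where 4438 of all 8468 genes were higher, with a median of 0.04. The lowest 10 genes in callus were Ighg2c and neutrophil granule genes such as Camp (10.2 and 2730 CPM), and the highest included Col2a1, which was at 0 in trabecular B cells.

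Among the control callus B cells themselves, the 16 early barcodes and the 319 with an Ighd UMI shared 2 barcodes, which were counted below with the early set and left 317 in the Ighd set. The early barcodes had Vpreb3 at 1625 CPM against 40.2 CPM in the Ighd set, and Cd24a, a surface protein of immature B cells, at 1268 CPM against 348 CPM. They had Cd74 at 149 CPM against 4911 CPM and H2-Aa at 8.3 CPM against 1866 CPM. The early set had Mki67 at 588 CPM against 49.7 CPM, and 8 of the 16 met the cell cycle threshold. None of the 16 was skeletal-rich, and Col2a1 stood at 1459 CPM in them against 24226 CPM in the Ighd set. The 217 control B cells with neither gene set had Cd74 at 3160 CPM and Ighm at 930 CPM, closer to the Ighd set, which had Ighm at 1489 CPM.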

How the data were processed

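The deposited files hold UMI counts per gene and barcode, made by the authors with Cell Ranger (the file headers name version 4 and, for the GC callus, 4.0.0, while the submitters' processing notes name Cell Ranger 5.0.1 with Seurat 3.2.0) on mm10, which is GRCm38. The GC callus file lists 7762 barcodes of at least 500 UMIs, and the other files list 6794880 each, so the same filters were set on all. B cells were chosen by the rule in the first paragraph, and the members and gene lists were chosen with earlier results of these data known.

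UMIs were summed per library and divided by the total (CPM). Genes with at least 50 UMIs over both sides were compared as log2 ratios with 5 CPM added, and 2-fold counted as a difference in value, with no test because each group is 1 library. The genes named come from 32 lists and from the 10 highest and 10 lowest ratios of each comparison among genes of at least 50 CPM on either side, and the 15 highest ratios over other callus barcodes. T cells had at least 1 Cd3e UMI and 3 over Cd3e, Cd3d, Cd3g and Trbc2, with no Cd79a. Chondrocytes had 6 cartilage genes at 5% of UMIs or more and no Ptprc. No doublets were removed; doublet removal by simulated pairs (2000 genes, 30 components, 30 neighbors) and cell calling by a Monte Carlo test (10000 draws) were run as alternatives. Deposited UMIs remove PCR copies, but not free RNA or capture differences. Gene positions are from GENCODE M21, in which 99.61% of 32285 features matched. Code was tested on simulated data. Python 3.11.15, numpy 2.4.6, scipy 1.17.1, pandas 2.3.3 and scikit-learn 1.9.0 were used.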

Additional observations from a re-analysis of the deposited data

Results flagged for a closer look

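For 8 genes the GC to control value had opposite signs, each past 2-fold, in callus and trabecular bone B cells, with 1 library per group and 18 B cells in the GC trabecular library. The differences were not tested. Ighg2c stood at a log2 of 8.08 in callus and -9.01 in trabecular bone, where 1 barcode in each of the GC callus and control trabecular libraries held nearly all of its UMIs (1111 of 1112 and 6760 of 6789). Junb stood at -1.19 and 1.37. The neutrophil genes S100a8 (1.76 and -4.26), S100a9 (1.76 and -4.55), Ngp (2.89 and -4.12) and Camp (2.60 and -4.85) and the hemoglobin genes Hba-a1 (1.05 and -2.49) and Hba-a2 (1.71 and -2.49) had a value above 0 in callus and below 0 in trabecular bone. In the GC callus 1 barcode held 284 of 327 Hba-a1 and 209 of 255 Hba-a2 UMIs, and without it the levels were 56.2 and 60.1 CPM, where the control levels were 203 and 97.9 CPM, or 114 and 63.7 CPM without the control barcode with most UMIs of each gene. Another barcode held 535 of 959 S100a8 and 577 of 1028 S100a9 UMIs, 67 of 126 of Ngp and 47 of 67 of Camp. Without it the GC levels were 555, 591, 77.3 and 26.2 CPM, and without the control barcode with most UMIs of each gene the control levels were 230, 253, 6.82 and 0.76 CPM. With doublets removed S100a8 and S100a9 turned to -2.62 and -2.03 in callus, the same sign as the trabecular values above.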

How the results depend on the processing

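No paired analysis was possible because each group is 1 library, so no library could be left out either. The GC to control ratio of the B cell share ran from 0.375 to 0.493 over 10 alternatives, and the medians of the early B (-0.95 to -0.39) and cell cycle lists (-1.77 to -0.44) stayed below 0 in every alternative run. The shares themselves moved. They were 5.75% (control) and 2.48% (GC) at 5% mitochondrial UMIs or less, 6.52% and 2.45% with 5 UMIs of the rule genes, 11.8% and 5.70% of barcodes with Ptprc, and 4.90% and 1.94% on barcodes thinned to 1000 UMIs. With 2 UMIs of the rule genes the GC share was 4.11%. At 800 UMIs Ighd was present in 32.4% of control B cells and the early B genes in 0% of GC B cells, and unthinned the shares were 58.0% and 50.2% for Ighd and 3.82% for the control cell cycle genes.

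Counts of genes past 2-fold moved too. Higher and lower genes numbered 37 and 166 (callus to trabecular bone 854 and 532) with 20 CPM added, 33 and 114 (439 and 338) after thinning, 146 and 715 with at least 20 UMIs, and 178 and 781 with no minimum. With at least 100 UMIs 282 were lower, with doublets removed 705 were lower, and without skeletal-rich barcodes 54 were higher. The neutrophil median turned to -2.03 with doublets removed, where S100a8 and S100a9 stood at -2.62 and -2.03, and to -0.95 without B cells rich in another class, where they stood at -1.36 and -0.95. Igkc turned to -0.080 without the barcode holding most of it. The alternatives leaving out skeletal-rich barcodes or that Igkc barcode, asking 2 UMIs, and thinning before the rule were chosen after seeing the data. Depth limits the early B and cell cycle shares, since 1000 UMIs per cell left 9 and 1 early cells. The causes were not tested.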
